A study of Mus musculus with 3 samples.

Results

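Replication-dependent histone genes encode the bulk of the histone protein that packages newly made DNA. They are short, mostly without introns, lie together in clusters, and are transcribed during S phase, and their mRNAs end in a stem-loop in place of a poly(A) tail. Neighbouring H2A and H2B genes are often transcribed away from each other out of a common promoter. ZFP410 is a zinc finger protein that binds DNA and is best known as a regulator of Chd4, the gene of a chromatin remodelling ATPase.

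The histone genes were all protein-coding genes of the mouse table whose current symbol begins with H1f, H2ac, H2bc, H3c or H4c and a digit, or whose older symbol begins with Hist1h, Hist2h, Hist3h or Hist4h. The rule took 71 of 21887 protein-coding genes on placed chromosomes, 67 by current symbol and 4 (H4f16, H2bu2, H2aw and H4bc24) by the older one alone. Of these, 54 lie on chromosome 13, 10 in a cluster on chromosome 3 and 2 in a cluster on chromosome 11, and 5 stand singly on chromosomes 6 and 15. Genes less than 500 kb apart were taken as a cluster, which divides chromosome 13 into cluster A (23 genes, chr13:21715711-22043658, mm10) and cluster B (31 genes, chr13:23531044-23934913). The label holds for the clusters and not for every gene taken. H1f0 and H1f10 are linker histones made outside S phase, H1f8 is an oocyte linker histone, and H1f6, H1f7, H2ac1 and H2bc1 are known from the male germ line.

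Binding was mapped by CUT&Tag, a method that tethers a transposase through an antibody and sequences the fragments it cuts around the bound protein. The cells were brown preadipocytes, sorted as Lin-CD29+CD34+Sca1+ cells from brown fat of male wild-type C57BL/6 mice. The groups were cells kept for 3 days in medium that drives brown adipocyte differentiation and profiled with ZFP410 antibody (induced), cells without that medium profiled with the same antibody (untreated), and cells without that medium profiled with IgG. IgG in induced cells was not analysed here. Each group had 1 library, so no difference below has a replicate check, no test was made and intervals cover counting error only. The lists held 7475 induced, 3256 untreated and 480 IgG peaks. A peak was assigned to a gene when its summit lay within 1 kb of the first or last base of the gene, called a gene end. The number of fragments over each summit and the local background at it were recovered from the authors' fold and p-value. The genome background was 0.246, 0.110 and 0.0231 fragments in the induced, untreated and IgG libraries, so a site of equal enrichment holds 2.24 times as many fragments in the induced as in the untreated library. Of the preadipocyte markers Itgb1, Cd34, Ly6a, Pdgfra and Dlk1, 0 of 5 had a gene-end peak in any list, which does not measure their expression.

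In induced cells 18 of 71 histone genes had a gene-end summit (25.4%, exact 95% interval 15.8 to 37.1), where 8.43% of all protein-coding genes had one. In untreated cells 6 of 71 had one (8.45%, 3.17 to 17.5), against 3.73% of all protein-coding genes. With a window of 2 kb, 10 of 71 had one in untreated cells, against 4.56% of all protein-coding genes. In the IgG list 0 of 71 had one, which allows a share of up to 5.06% by the exact interval, against 0.0366% of all protein-coding genes. Because a peak can lie near several of these tightly packed genes, the distinct peaks are the sounder count. There were 14 induced, 5 untreated and 0 IgG peaks at histone gene ends. Of the 14 induced peaks 12 served 2 genes each, whereas 1 of the 5 untreated peaks did.

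All of these peaks lay on chromosome 13. In induced cells cluster A held 11 peaks at 12 of its 23 genes and cluster B 3 peaks at 6 of its 31 genes. In untreated cells cluster A held 3 peaks at 4 genes and cluster B 2 peaks at 2 genes. The clusters on chromosomes 3 and 11 and the 5 single genes held 0 gene-end peaks in each list. With shares of 8.43% induced and 3.73% untreated over all protein-coding genes, these genes are too few to read a lack of peaks from. The summit nearest to the chromosome 3 cluster lay 89108 bp from H2bc18 in the induced list and 115379 bp from H2ac21 in the untreated list. For the chromosome 11 cluster the nearest summits were 247363 bp from H2aw in the induced and 228715 bp from the same gene in the untreated list. The single genes came closest at H1f10, an induced summit of 4 fragments 11419 bp away, and at H4f16, an untreated summit of 4 fragments 3796 bp away.

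**Figure D1:**
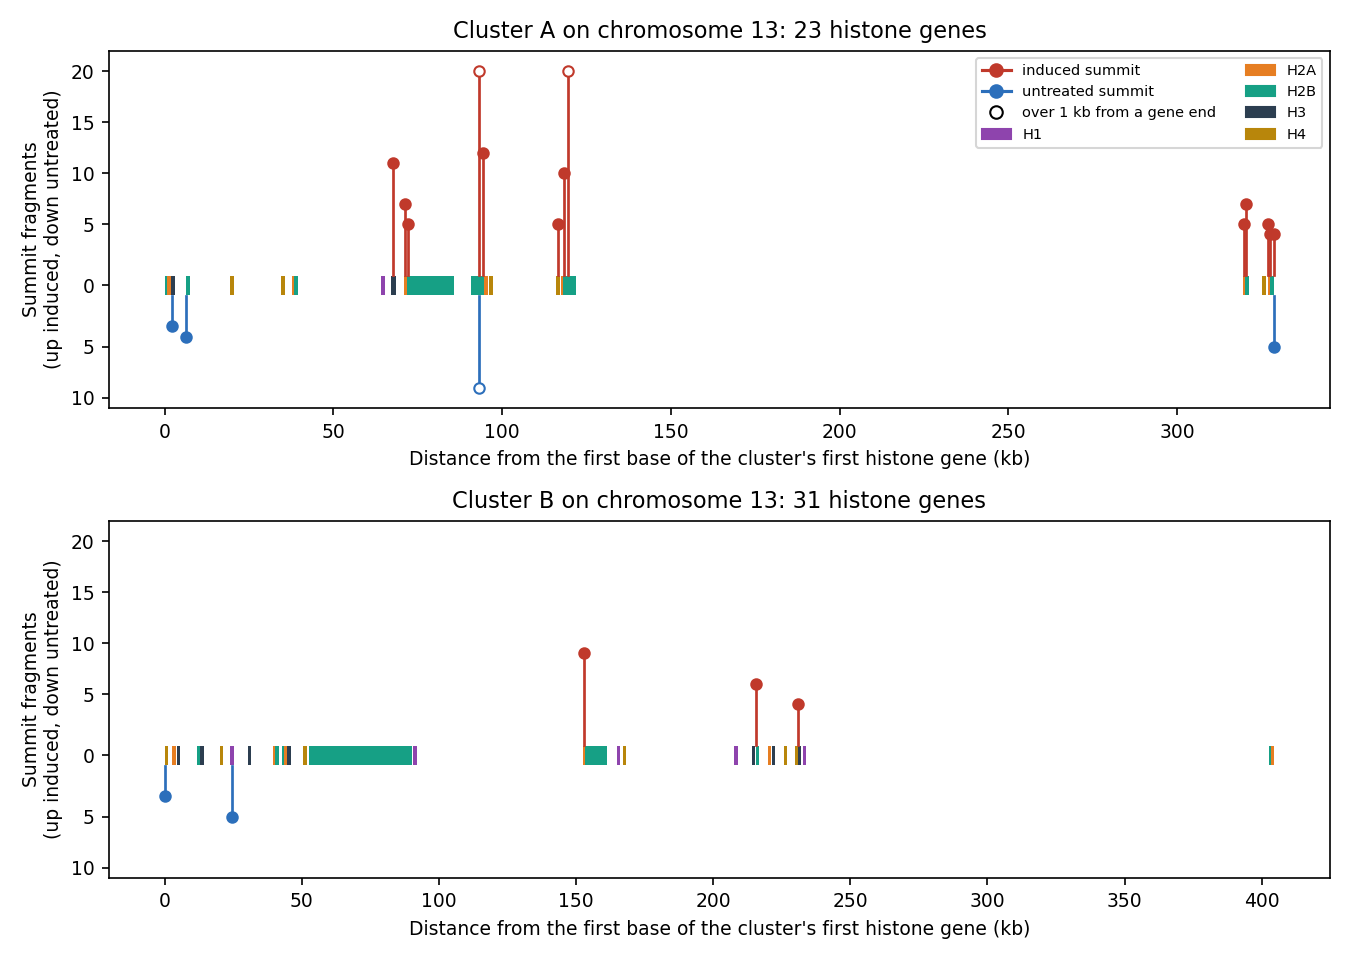
ZFP410 summits along the 2 histone clusters of chromosome 13. The x axis is the distance in kb from the first base of the first histone gene, stems give summit fragments (induced upwards, untreated downwards), blocks on the midline are histone genes coloured by family, with short genes widened to be visible, and open circles are summits over 1 kb from a histone gene end. Induced summits gather in 2 stretches of cluster A that are 200 kb apart, and the 2 untreated summits of cluster B lie at genes without an induced one.

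Much of a count by gene depends on how close the genes lie, so peaks were also set against the length of sequence searched. Merged windows around the ends of the 54 chromosome 13 histone genes covered 110 kb and held 12.8 induced peaks per 100 kb (exact 95% Poisson interval 6.98 to 21.4). Windows around all 71 histone genes covered 150 kb and held 9.31 (5.09 to 15.6), and those around all protein-coding genes held 2.01 (1.91 to 2.11). In untreated cells the same densities were 4.56 (1.48 to 10.6) on chromosome 13, 3.33 (1.08 to 7.76) for all histone genes and 0.917 (0.851 to 0.986) for all protein-coding genes. In both libraries the interval of the histone genes lay above the value of all protein-coding genes. The intervals take peaks as independent, which neighbouring peaks need not be, and all protein-coding genes include silent ones.

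**Figure D2:**
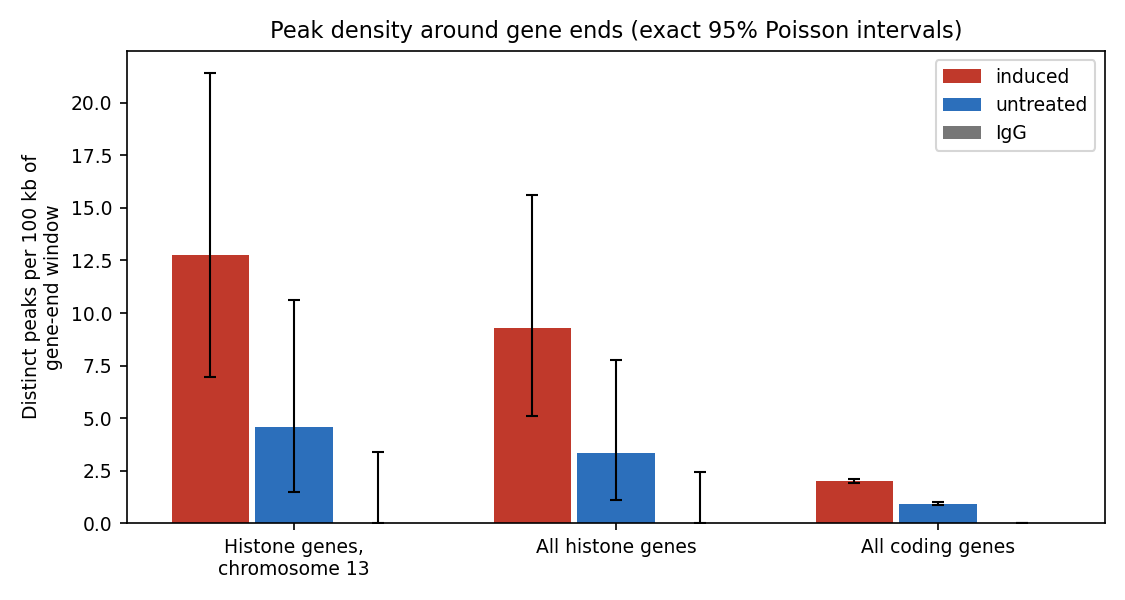
Distinct peaks per 100 kb of merged gene-end window (y axis) for the 54 histone genes of chromosome 13, all 71 histone genes and all protein-coding genes. Bars are the induced, untreated and IgG libraries, 1 library each, and whiskers are exact 95% Poisson intervals. The induced bars stand at 12.8, 9.31 and 2.01.

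The surroundings of the clusters held fewer peaks. Inside the clusters of chromosome 13 there were 15 induced summits over 732 kb, or 2.05 per 100 kb (1.15 to 3.38), and 7 over 3487 kb of flanks reaching 1 Mb to each side, or 0.201 per 100 kb (0.0807 to 0.414). For untreated cells the values were 0.683 (0.222 to 1.59) inside and 0.143 (0.0466 to 0.335) in the flanks. The induced and untreated summits past the downstream end of H2bc11 lie beyond the last base of cluster A. They are histone gene-end summits that fall in the flanks here. The flanks carry 75 other protein-coding genes, 36 of them vomeronasal receptor genes, and the gene-end windows there held 1.63 induced and 0.409 untreated peaks per 100 kb. Of the 10 protein-coding genes inside the clusters that are no histone genes, among them the iron regulator gene Hfe and the zinc finger gene Zfp184, 0 had a gene-end summit in any list. Over all protein-coding genes the shares were 8.43% induced and 3.73% untreated, so 10 genes are too few to read a lack of summits from. Hfe was 17988 bp and Zfp184 74703 bp from the nearest induced summit.

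The upstream sequences of genes whose start lay at a summit are shown because the strongest and the most closely placed peaks fell on them. Of the 71 genes 66 matched a promoter in the RefSeq table (GRCm38.p6, the coordinates of mm10), with 67 sequences. Each line gives the 200 bases just before the annotated start, 5′ to 3′ on the strand of the gene, and capitals mark 3 known elements on either strand. TATAAA is the core of a TATA box. The NF-Y factor binds the letters CCAAT. The octamer ATTTGCAT is bound by Oct-1 and known from H2B promoters. H3c11 is at chr13:21783398-21783597 (minus strand), H2ac6 at chr13:23683960-23684159 (minus), H4c18 at chr13:21832198-21832397 (minus) and H2bc14 at chr13:21721844-21722043 (plus).
H3c11, induced summit 2 bp after the start: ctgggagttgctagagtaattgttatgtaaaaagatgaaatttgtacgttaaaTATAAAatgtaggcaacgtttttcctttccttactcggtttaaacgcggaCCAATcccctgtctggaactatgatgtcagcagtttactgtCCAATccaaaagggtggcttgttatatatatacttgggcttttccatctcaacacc
H2ac6, induced summit 87 bp before the start: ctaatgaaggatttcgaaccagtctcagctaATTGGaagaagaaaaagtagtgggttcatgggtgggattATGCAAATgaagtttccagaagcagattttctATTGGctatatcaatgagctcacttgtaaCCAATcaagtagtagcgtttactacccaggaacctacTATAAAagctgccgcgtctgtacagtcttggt
H4c18, induced summit 5 bp after the start: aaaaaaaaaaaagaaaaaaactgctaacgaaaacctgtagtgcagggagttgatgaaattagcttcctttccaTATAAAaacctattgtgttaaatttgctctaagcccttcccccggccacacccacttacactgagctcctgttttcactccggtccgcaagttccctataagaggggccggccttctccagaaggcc
H2bc14, untreated summit 5 bp before the start: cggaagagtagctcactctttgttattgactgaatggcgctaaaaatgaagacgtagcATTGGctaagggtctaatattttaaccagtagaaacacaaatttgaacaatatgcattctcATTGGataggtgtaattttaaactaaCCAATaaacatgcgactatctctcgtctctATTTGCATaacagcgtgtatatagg
The TATA box of H2ac6 begins 32 bp before the start and its CCAAT copies begin 69, 98 and 169 bp before it. H2bc14, whose untreated peak (chr13:21721905-21722181) held 4 fragments at a fold of 4.51, has 3 CCAAT copies and an octamer 25 bp before its start. H3c11 has a pair of CCAAT copies 97 and 56 bp before its start and a TATAAA 147 bp before it. H4c18 has a TATAAA 127 bp before its start and holds no CCAAT in this stretch. Both of these TATAAA lie farther out than a TATA box is known to lie. Only the exact letters TATAAA were marked, so a TATA box of other letters would stay in lower case. Nearer the start, H3c11 holds tatatata and H4c18 holds tataag, and whether these act as TATA boxes was not tested.

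H3 genes encode the core histone whose tail carries many of the well studied chromatin marks. H3c11 had the highest fold of all histone gene-end peaks. Its induced peak (chr13:21783226-21783496) held 11 fragments over a local background of 0.406, at a fold of 8.53 and rank 1487 of the induced list. No untreated peak was listed there, where 4.91 fragments would have been expected at equal enrichment. H3c1 shared an induced peak with H4c1 (chr13:23761854-23762190), of 4 fragments at a fold of 3.72, with its summit 54 bp from the end of H3c1. H3c3 was counted from 973 bp away through an induced peak at H2bc3 (chr13:23746034-23746567), of 6 fragments at a fold of 5.44. They stood at ranks 7224 and 4664 of the induced list. H3c10 had a peak in the untreated list alone (chr13:21717822-21717955), of 3 fragments at a fold of 3.47, 201 bp inside the gene. H2ac13 was counted through the same peak. No induced peak overlapped it, where 6.72 fragments would have been expected at equal enrichment.

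H2A and H2B genes, whose products pair to form the dimers of the nucleosome core, made up most of the genes occupied in the induced list. On chromosome 13, 6 of 13 H2A and 7 of 15 H2B genes had an induced gene-end summit, against 1 of 13 and 2 of 15 in untreated cells. Of the H3 genes there 3 of 9, of the H4 genes 2 of 11 and of the H1 genes 0 of 6 had an induced one. In untreated cells 1 gene of each of these families had one. Over all protein-coding genes the shares were 8.43% induced and 3.73% untreated. These counts share peaks, and differences between families were not tested. The peak of H2ac6 (chr13:23683867-23684573) held 9 fragments at the genome background, a fold of 8.02. It was the only gene-end peak in 14 whose summit lay between an H2A and an H2B protein-coding gene, 87 bp from H2ac6 and 153 bp from H2bc4.

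At most other H2A and H2B genes the summit lay inside a gene and not between genes. Among genes with an annotated start, 10 pairs of neighbouring H2A and H2B genes have starts that point apart, 164 to 281 bp from each other. A pair with a gene that matched no promoter sequence, such as H2ac6 with H2bc4, could not be among them. An induced summit lay within 250 bp of the starts of 5 of these pairs and an untreated one at 0. The summits of H2bc23 with H2ac23 and of H2ac24 with H4bc24 lay over local backgrounds of 9.11 and 10.5 times the genome background. Pairs of other genes were not counted, and the untreated library is the shallower one. In 0 of the 10 did a summit lie between the starts. H2ac12 had an induced peak of 5 fragments (chr13:22035297-22035636, fold 4.81) with its summit 149 bp downstream of its start. Its partner H2bc12 had one of 7 fragments (chr13:22035950-22036159, fold 6.42), 187 bp downstream. H2ac22 had one of 7 fragments (chr13:21786954-21787176, fold 5.69), 197 bp downstream. Each of these summits lay inside its gene. H2bc22 had one of 5 fragments (chr13:21787689-21787867, fold 4.81), 286 bp downstream. H2ac11 had one of 5 fragments (chr13:22042694-22042961, fold 4.27), 252 bp downstream, and H2bc11 one of 4 (chr13:22043354-22043556, fold 4.01), 157 bp downstream. In these 3 pairs the summits therefore stood on both sides of the common promoter. Of all 14 induced peaks 10 had a summit within 250 bp of an annotated histone gene start and 3 lay upstream of the nearest one. H2bc4 and H3c1 are among the genes that matched no promoter sequence, so distances to their starts were not determined. Over all protein-coding genes 59.5% of induced gene-end peaks lay within 250 bp of a start. Most histone genes are so short that both of their ends lie near a start, so the shares are not like for like.

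**Figure D3:**
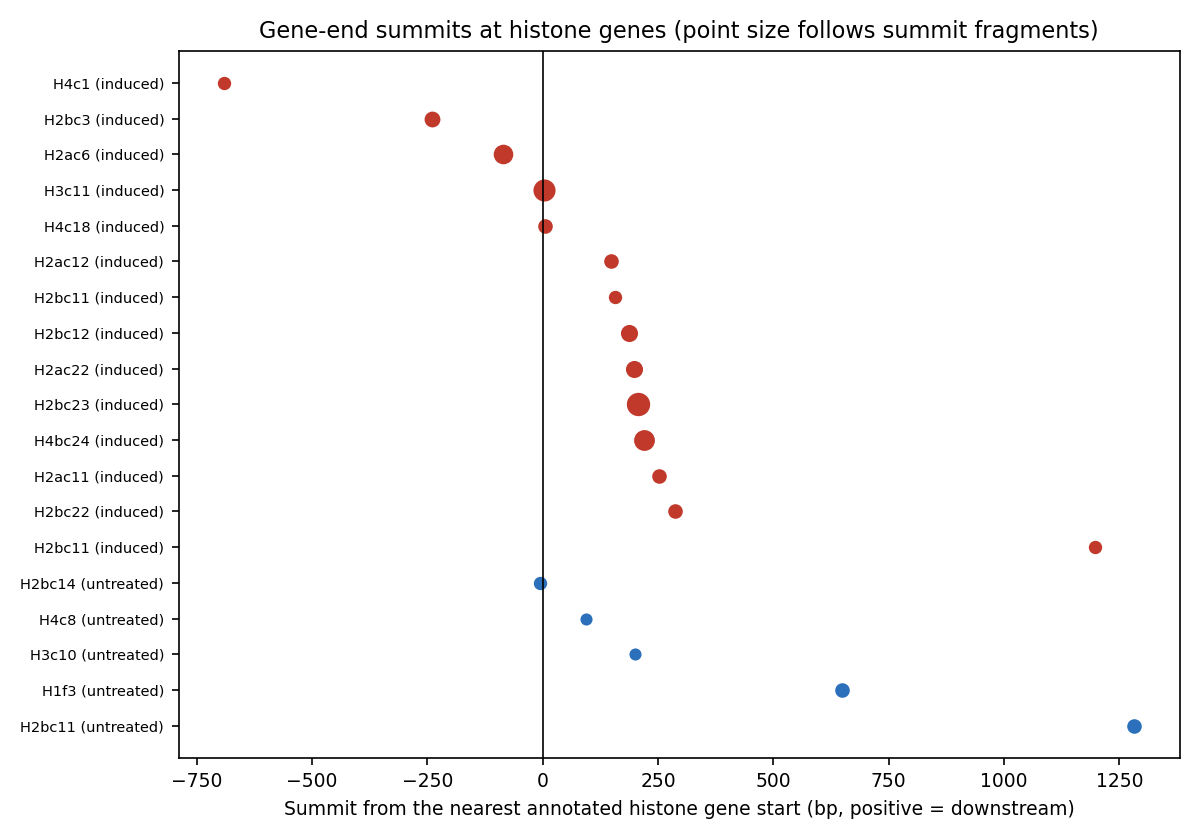
Distance of each histone gene-end summit from the nearest annotated histone gene start (x axis, bp, positive downstream), 1 row per peak, the 14 induced peaks above the 5 untreated ones, with point size following summit fragments. Between 149 and 286 bp downstream of a start stand 8 induced summits, all at H2A and H2B genes.

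H4 genes encode the most conserved core histone. H4c18 had an induced peak of 5 fragments (chr13:21832042-21832231) at a fold of 4.21, with its summit 5 bp after the start shown above. H4c8 had an untreated peak of 3 fragments (chr13:23531111-23531337) at a fold of 3.60, 94 bp inside the gene, and no induced one within 13161 bp. H1 genes encode the linker histones that bind DNA between nucleosomes. H1f3 was the only H1 gene with a gene-end summit in any list, an untreated peak of 5 fragments at a fold of 5.41 (chr13:23555620-23555801) located 126 bp from the gene's downstream end. The nearest induced summit to H1f3 lay 37149 bp away.

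H2bc23 and H4bc24, an H2B gene by its older symbol, point in opposite directions and are called copies here. Each is 3788 bp long, and their promoter sequences were identical over all 300 bases of the RefSeq table. Their sequence beyond those bases was not compared. Induced peaks stood at matching places in both. Near the upstream end H2bc23 held 12 fragments at a fold of 4.01 (chr13:21809803-21810193), 206 bp into the gene. H4bc24 held 10 fragments at a fold of 3.07 (chr13:21833945-21834195), 220 bp into the gene. Through these peaks the partner genes H2ac23 and H2ac24 were counted too, as was H2ac24 through the peak of H4c18. Further in, 1355 bp from the upstream end in either gene, they held 20 fragments each, the highest number inside the clusters. Reads from such copies cannot be told apart by sequence where the copies are identical, and no source used here gives how the authors placed them. The local background at these 4 peaks was 9.11 to 18.2 times the genome background, against at most 1.73 times at the other 12 induced gene-end peaks. Without peaks over more than 2 times the genome background 15 of 71 histone genes and 12 peaks were left in the induced list, where 7.01% of all protein-coding genes remained. The untreated list still had 6 genes and 5 peaks, where 3.3% of all protein-coding genes remained. H4c18 and H4c17 also have closely alike promoter sequences, with 99.3% of 300 bases identical.

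**Figure D4:**
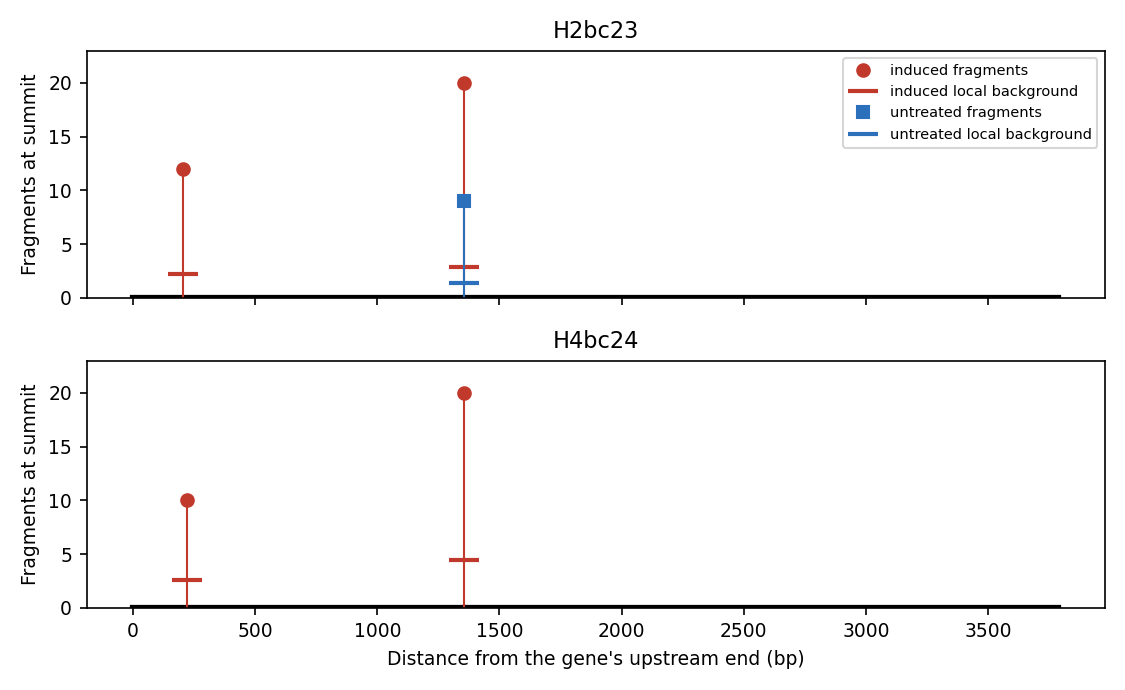
Summits inside the copies H2bc23 and H4bc24, by distance from the upstream end of each gene (x axis, bp; the black bar is the gene). The y axis is fragments at the summit, and horizontal dashes give the local background. Induced summits of 20 fragments stand 1355 bp into both copies, and the untreated summit of 9 fragments stands 1354 bp into H2bc23.

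Few sites were listed in both ZFP410 libraries. Of the 14 induced gene-end peaks 1 overlapped an untreated peak (7.14%, exact interval 0.181 to 33.9), and of the 5 untreated peaks 1 overlapped an induced one (20%, 0.505 to 71.6). For gene-end peaks of all protein-coding genes the shares were 26.7% and 59.9%, both inside those intervals. The shared site lies past the downstream end of H2bc11. It held 4 induced fragments (chr13:22044372-22044563) and 5 untreated fragments (chr13:22044386-22044563), with summits 736 and 822 bp from the gene. Its enrichment ratio, induced over untreated, was 0.357 (exact binomial 95% interval 0.0709 to 1.66). H2bc11 was thus the only gene in both lists, with 17 genes in the induced list alone and 5 in the untreated list alone. Genes that share a peak are counted separately here, and the same split was not made over all protein-coding genes. Inside H2bc23 the summit 1355 bp from the upstream end was shared as well, with 20 induced and 9 untreated fragments and a ratio of 0.992 (0.432 to 2.47), over local backgrounds of 2.84 and 1.42.

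Depth limits what the lists can show at genes of the induced list alone. At equal enrichment the 14 induced peaks would have held 1.79 to 5.36 fragments in the untreated library, and 8 of them fewer than the 3 of its weakest listed peak. Keeping only induced peaks that would reach 3 there left 11 genes and 6 peaks, where 5.22% of all protein-coding genes remained by the same rule. This rule leaves local background out of account. The peaks kept include those of H2bc23 and H4bc24, over 9.11 and 10.5 times the genome background, where 3 fragments need not be enough for listing. The 5 untreated peaks would have held 6.72 to 11.2 fragments in the induced library, above the 4 of its weakest peak, and 4 of them met no induced peak. Peaks chosen for being listed favour their own library, so these expected numbers can be too high. In the IgG library the same peaks would have held at most 1.12 fragments, below the 2 of its weakest peak, so the absence of IgG peaks says little at this depth.

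**Figure D5:**
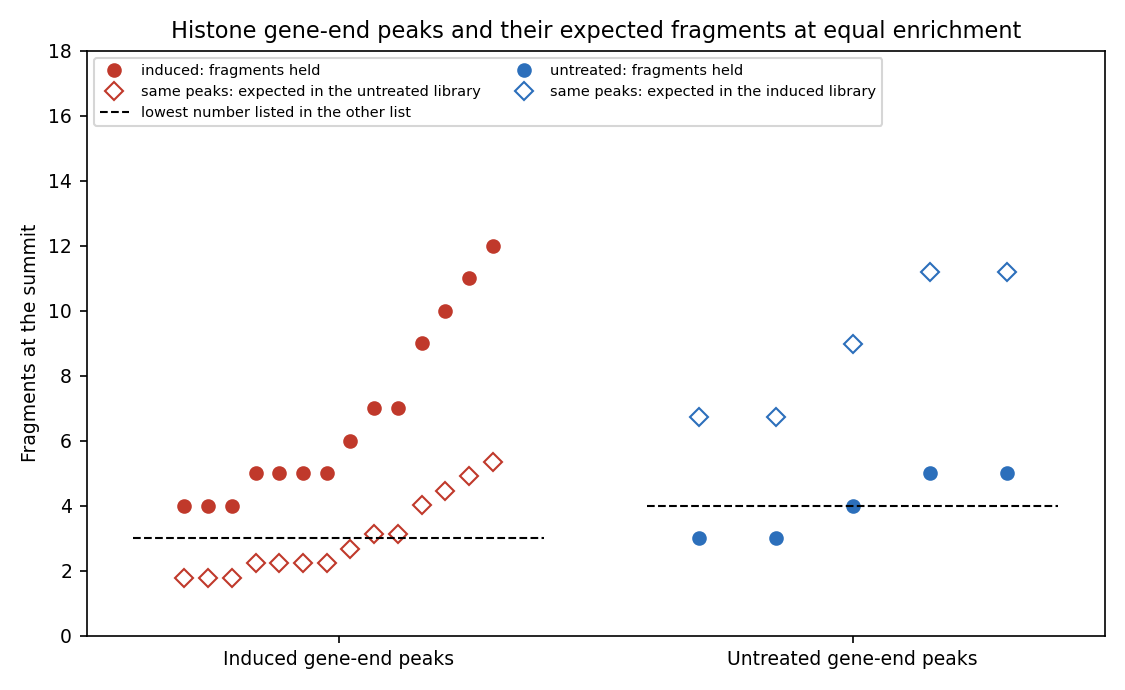
Fragments at each histone gene-end summit (y axis, filled points) and the number expected in the other ZFP410 library at equal enrichment over the genome background (open diamonds), for 14 induced peaks on the left and 5 untreated peaks on the right. Dashed lines give the lowest number listed in the other list, 3 for untreated and 4 for induced, and 8 of the 14 open diamonds on the left lie under the line.

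The histone gene-end peaks ranked low in the induced list and near the middle of the untreated list by fold. The 14 induced ones held 4 to 12 fragments (median 5.5) at a median fold of 4.54, against medians of 7 fragments and 5.90 for induced gene-end peaks of all protein-coding genes and 7 and 5.62 for the whole induced list. Their median rank was 5671 of 7475. The 5 untreated ones held 3 to 5 (median 4) at a median fold of 4.51, against 5 and 4.80 for untreated gene-end peaks of all protein-coding genes and 4 and 4.51 for the whole untreated list. Their median rank was 1480 of 3256. In neither list was one of them among the 500 peaks of highest fold. With −log10 q held to 5 or more, the induced list kept 5 histone genes and 3 peaks, at H3c11, at H2bc12 with H2ac12 and at H2ac6 with H2bc4, where 4.42% of all protein-coding genes remained. The untreated list kept 0 histone genes, where 1.0% of all protein-coding genes remained. At a fold of 5 or more the induced list kept 9 of 71 histone genes, against 5.87% of all protein-coding genes. The untreated list kept 2 of 71, against 1.94%.

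The known elements of histone promoters were counted over 250 bases before to 50 after the start, on both strands. CCAAT stood in 55 of 67 histone promoters (82.1%) and in 37.4% of all 32851 promoters. TATAAA stood in 52.2% and 13.6%, and ATTTGCAT in 20.9% and 1.74%. Among histone promoters, CCAAT stood in 15 of 16 with an induced gene-end peak and in 36 of 46 with no ZFP410 peak, and TATAAA in 9 of 16 and 24 of 46. ATTTGCAT stood in 4 of 16 and 9 of 46. CCCATAATA, 9 letters of the sequence known to be bound by ZNF410, the human counterpart of ZFP410, stood in 0 of 67 histone promoters and in 0.0974% of all promoters. A match is a description of letters, neighbouring genes can share a promoter, and these shares were not tested.

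Genes that act on histone genes and their products were taken as 4 lists. Among 14 genes of histone gene transcription 4 had an induced and 2 an untreated gene-end peak. Nfya, a subunit of the CCAAT-binding factor NF-Y, held 16 induced and 5 untreated fragments, a ratio of 1.43 (0.5 to 4.99). Yy1, a zinc finger transcription factor gene, held 9 and 4, a ratio of 1.00 (0.280 to 4.46). Hinfp, whose product binds H4 promoters, and Casp8ap2, whose product works with NPAT in the histone locus body, had induced peaks alone, of 6 and 5 fragments. Npat itself had no gene-end peak.

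Among 18 genes of histone pre-mRNA processing and decay 4 had an induced and 3 an untreated gene-end peak. Slbp, which encodes the stem-loop binding protein of histone mRNA, had an induced peak of 8 fragments at a fold of 7.22, with its summit 10 bp from a gene end, where 3.57 would have been expected in the untreated library. Zfp473, a zinc finger protein of the histone 3′ end machinery, held 6 induced and 5 untreated fragments (ratio 0.536, 0.136 to 2.22). The cap-binding gene Ncbp1 held 5 and 6 (0.372, 0.0898 to 1.46), and Ncbp2 had 11 fragments in the induced list alone. Cpsf1, named after its values had been seen, had an untreated peak of 4.

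Among 18 histone chaperone genes 3 had an induced and 3 an untreated gene-end peak, of which Hjurp alone was in both. Hjurp, the chaperone gene of the centromeric H3 variant, held 9 induced and 5 untreated fragments in peaks that did not overlap. Ssrp1 and Supt16, the subunits of FACT, held 5 and 4 in the induced list alone, and Cabin1 held 4 in the untreated list alone, as did Chaf1b, named after its values had been seen. Among 11 genes of replication-independent variants, of which H1f0 and H1f10 are also among the 71, H3f3a had 8 induced fragments and H2aj 4 untreated ones. The 4 lists had 0 IgG peaks. Lists of 11 to 18 genes with 1 to 4 occupied ones are too short to be read against the 8.43% and 3.73% of all protein-coding genes.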

How the data were processed

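CUT&Tag libraries of ZFP410 in induced cells, of ZFP410 in untreated cells and of IgG in untreated cells were compared, 1 library each, grouped by the labels. The submitters' processing notes name mm10, Bowtie2 2.2.6, MACS2 2.1.1 and Picard, and the deposited peak names carry a q threshold of 0.1. The sources used here do not give how duplicates and reads with several placements were treated, nor which control was used. The authors' lists give for each peak a score, a fold over local background, −log10 values for p-value and q-value, and the summit offset. These deposited values describe peaks within a list. The fold is summit fragments plus 1 over background plus 1, and with the Poisson tail it returned whole fragments for 7473 of 7475 induced and all 3256 untreated and 480 IgG peaks (tolerance 0.001 in −log10 p), a step tested on simulated data. The lowest background of a list was taken as its genome background. Relative depth was 2.01, induced over untreated. Library read totals were not analysed here.

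Python 3.11.15, SciPy 1.17.1, pandas 2.3.3 and Biopython 1.88 were used. Gene ends come from RefSeq, GRCm38.p6. Exact intervals are at 95%. The text names every histone gene with a gene-end summit and up to 4 genes of each other list by induced fold. The members, lists and alternatives were chosen with earlier results of these data known.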

Additional observations from a re-analysis of the deposited data

How the results depend on the processing

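Of 71 recomputed values 17 moved beyond the margin set (1.5 times for counts, the counting interval otherwise). The others include values with no room to move, such as 16 IgG counts of 0 and filters that removed no histone peak, so their number says little about stability. With −log10 q held to 5 or more, the induced list kept 5 histone genes and 3 peaks and the untreated list 0 and 0. Peaks per 100 kb inside the chromosome 13 clusters were 0.547 induced and 0 untreated there, those in the untreated flanks were 0, and 0% of induced gene-end peaks were shared. At a fold of at least 5 the induced list kept 9 genes and 5 peaks and the untreated list 2 genes and 2 peaks, where 5.87% and 1.94% of all protein-coding genes remained. Induced peaks scaled to the untreated genome background, with local background left out of account, gave 11 genes and 6 peaks. A window of 2 kb gave 10 untreated genes, against 4.56% of all protein-coding genes, and one of 500 bp left 0% of induced and 0% of untreated peaks shared. Settings added after the data had been seen were annotated starts alone and low local background. The shared share of untreated peaks at that q had no value, as 0 peaks were left. No paired analysis was possible because each group had 1 library. Low fragment numbers, 3 to 12 at the histone gene-end summits, limit every ratio given.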

Other observations

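Pseudogenes of the same families lay at some of these peaks. The summit of 6 fragments that was assigned to H2bc3 and H3c3 stood inside the pseudogene H2ac5-ps (chr13:23746105-23746514). The untreated summit 5 bp from H2bc14 stood 238 bp from the pseudogene H2ac14.

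Cluster A is broken by a stretch of 200 kb without a summit in any list, between an induced summit in H4bc24 and one in H2ac12. It holds 0 histone genes of the rule. The clusters of chromosome 13 also hold 31 annotated tRNA genes, of which 0 had a ZFP410 summit within 1 kb. The share of tRNA genes elsewhere with a summit was not counted, so no avoidance can be read from this. At the far end of cluster B, 173 kb without a summit held 3 histone genes, the linker histone gene H1f1 and the germ line genes H2bc1 and H2ac1. In the untreated list a stretch of 379 kb with 24 histone genes held no summit. Gene-end summits stood at 8.43% of all protein-coding genes in the induced and 3.73% in the untreated list. Neither stretch can therefore be read as a lack of summits at histone genes.

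The untreated summit nearest to H4f16, on chromosome 6, lies at H2aj, a variant H2A gene that is no member of the rule's list.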
